A study of Mus musculus with 16 samples.

Results

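Of 22347 genes considered among the 22609 counted in sorted sensory neurons, 33 had a level in the lowest of the 4 nodose and jugular ganglion (NG/JG) libraries that was above the level in the highest of the 12 trigeminal (TG) and dorsal root ganglion (DRG) libraries. They were sought as the genes most restricted to vagal neurons. They were selected on their CPM (the reads of a gene over all reads on genes, on the usual depth-scaled unit) in all 16 libraries. The score was the lowest NG/JG CPM plus 1, divided by the highest CPM of the 12 other libraries plus 1, and the 60 highest scores were to be taken after *Acsbg1* and symbols starting with *Hox*, *P2rx*, *Htr*, *Kcn*, *Rpl* or *Rps*, or belonging to a further family not reported here, had been left out. A score was above 1 for 33 genes, which is 0.148% of the 22347 genes left after these exclusions and 0.163% of the 20200 with a read in any library. Over all 22609 genes 37 met the condition, and 4 of these were left out by symbol. The other 27 places fell on 2216 genes tied at exactly 1. All of these tied genes lacked a read in the lowest NG/JG library, and 2147 of them had no read in any library, so no gene could be chosen for these places. All values that set NG/JG against the 12 other libraries were used in the choice and are given as a description, with no test.

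The sensory neurons came from naïve adult C57BL/6J mice labelled male. All 4 groups carried Pirt-cre with the Rosa26 LSL-tdTomato reporter (*Pirt*/TdTomato mice), so that cells with a history of *Pirt* expression were red. Each group had 4 libraries, and the groups were the NG/JG, the TG, and DRG of levels T10-L1 and L3–L5. Weakly red cells were gated out during sorting, which leaves them out of every library, and *Pirt* itself drove the Cre, so its level does not check the sort independently. The labels give the tissue of the NG/JG libraries as nodose ganglion and their source as both ganglia, and they do not say that the libraries of one group came from separate animals. The p-values below therefore measure only the spread between libraries, which may be technical.

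The vagus nerve has its sensory cell bodies in a pair of fused ganglia. Nodose neurons come from an epibranchial placode and innervate thoracic and abdominal organs, while jugular neurons come from the neural crest and resemble the somatic neurons of TG and DRG. Genes that set vagal afferents apart are therefore often receptors, channels and transcription factors of placodal neurons, and these can be carried by small subsets of cells. In bulk samples such as these, fewer cells of a type and less RNA per cell cannot be told apart.

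Reads on genes ranged from 4735624 to 13333318 per library. Between 10132 and 13029 genes had a read in the NG/JG libraries, and between 11527 and 18571 in the 12 others. The 5 markers of nodose neurons listed summed to 376 to 2042 CPM in the NG/JG libraries and to 0.889 to 199 CPM in the 12 others, while single markers differed between the NG/JG libraries. *P2rx2*, a purinergic channel left out of the choice by its symbol, had 181, 36.8, 967 and 0.103 CPM. The 4 markers of jugular neurons counted went the other way, with sums of 1.03 to 132 CPM in NG/JG and 50.9 to 1419 CPM in the 12 others. The 8 markers of sensory neurons summed to 1326 to 4588 CPM in NG/JG and 833 to 10507 CPM in the 12 others. In NG/JG these sums lay under those of the glial markers that follow. The summed level of 8 satellite glia markers was 31841 to 47214 CPM in NG/JG and 13738 to 65106 CPM in the 12 others, and that of 5 Schwann cell markers was 8169 to 29084 CPM in NG/JG and 7926 to 53314 CPM in the others. The 6 macrophage markers counted summed to 14.1 to 2457 CPM in NG/JG and 53.3 to 10006 CPM in the others. No marker of the satellite glia, Schwann cell and macrophage lists had all 4 NG/JG libraries above the others, and the part of these cells in the levels below was not tested. All animals are labelled male, but each library had at least 1279 counts on *Xist* and 0 on the 13 chromosome Y genes counted.

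The word "restricted" was not borne out by most of the 33 genes. In 26 of them the mean was at least 5 CPM in each of the other 3 ganglia, and only *Efcab6*, *Ppargc1b*, *Hpcal4* and *Gm13308* had a mean under 5 CPM in all 3. The ratio of the NG/JG mean to the mean of the 12 other libraries ran from 1.51 for *Rnf167* to 85.4 for *Efcab6*, with a median of 2.88. It was above 5 for 9 genes and under 3 for 18. These genes are thus better described as having a floor in NG/JG above the ceiling of the other ganglia.

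**Figure D1:**
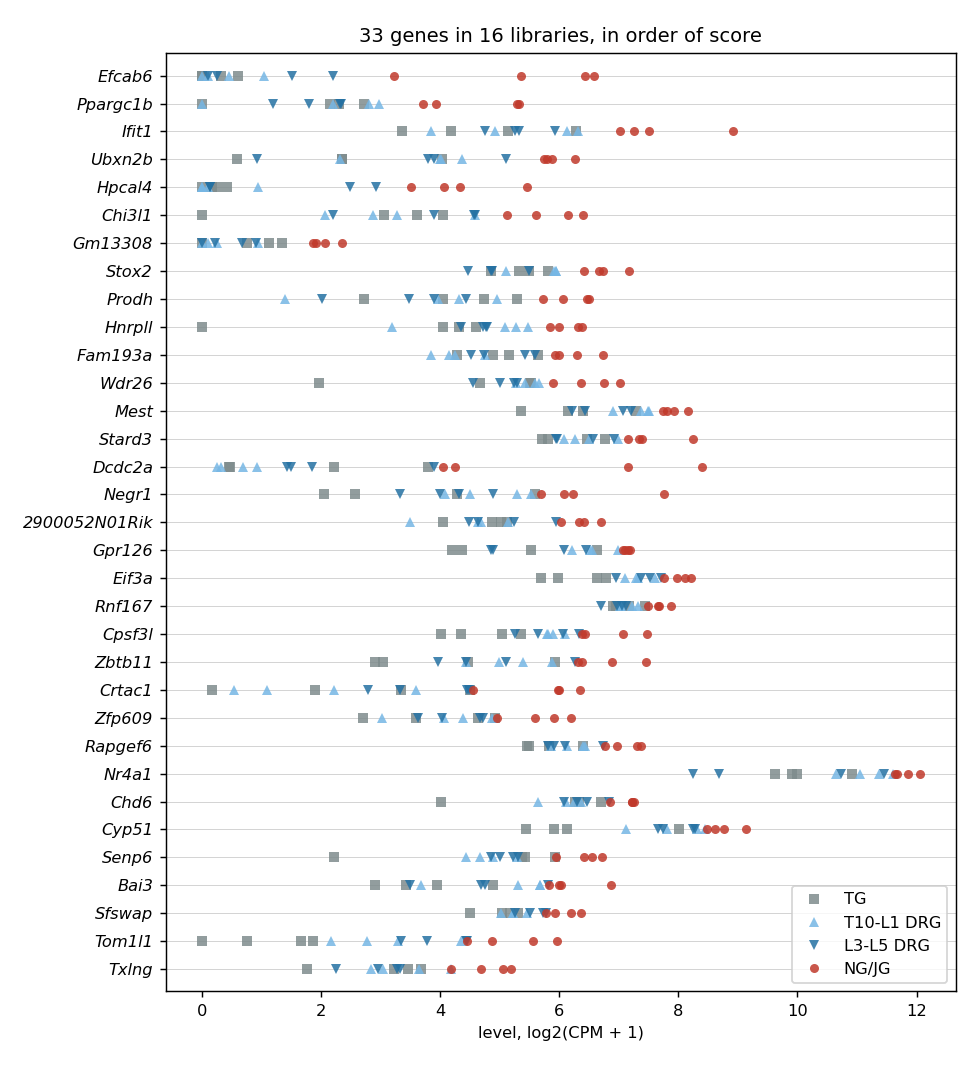
Level of each of the 33 genes as log2(CPM + 1) on the horizontal axis, 1 point per library, with the genes in order of score from top to bottom. Red circles are the 4 NG/JG libraries, dark and light blue triangles L3–L5 and T10-L1 DRG, and grey squares TG. The red points lie right of all others in every line by construction, and in *Efcab6*, *Hpcal4*, *Gm13308* and *Dcdc2a* many libraries of the other ganglia lie near 0, as do single libraries of genes such as *Ppargc1b*, *Crtac1* and *Tom1l1*.

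The promoters of 4 of these genes are shown because they stand for the kinds of gene found: *Hpcal4* and *Dcdc2a* as neuronal or ciliary genes with large ratios, *Ifit1* as the interferon-induced gene, and *Nr4a1* as the gene with the highest level. Each is the 250 bases before the gene's start, taken from RefSeq on GRCm38.p6 and read 5′ to 3′ on the gene's strand, which is the plus strand for all 4. The windows are chr4:123183254-123183503, chr13:25055754-25056003, chr19:34640639-34640888 and chr15:101266596-101266845. Capitals mark the letters GGGCGG (GC box), CCAAT (NF-Y box) or AAANNGAAA (the core of the interferon-stimulated response element), on either strand.
Hpcal4: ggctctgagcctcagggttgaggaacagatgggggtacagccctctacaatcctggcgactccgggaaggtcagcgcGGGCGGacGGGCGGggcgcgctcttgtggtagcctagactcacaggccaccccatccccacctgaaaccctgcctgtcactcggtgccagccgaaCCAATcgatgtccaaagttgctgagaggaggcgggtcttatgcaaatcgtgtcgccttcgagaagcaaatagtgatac
Dcdc2a: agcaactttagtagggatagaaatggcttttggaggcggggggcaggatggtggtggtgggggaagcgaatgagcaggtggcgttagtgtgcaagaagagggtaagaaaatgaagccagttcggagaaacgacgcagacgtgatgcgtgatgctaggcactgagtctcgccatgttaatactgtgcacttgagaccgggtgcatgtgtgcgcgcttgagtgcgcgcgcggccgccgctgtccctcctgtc
Ifit1: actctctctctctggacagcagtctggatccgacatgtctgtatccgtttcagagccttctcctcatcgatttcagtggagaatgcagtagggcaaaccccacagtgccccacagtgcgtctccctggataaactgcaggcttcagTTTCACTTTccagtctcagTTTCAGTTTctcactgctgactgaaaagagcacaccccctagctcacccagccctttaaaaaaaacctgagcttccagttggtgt
Nr4a1: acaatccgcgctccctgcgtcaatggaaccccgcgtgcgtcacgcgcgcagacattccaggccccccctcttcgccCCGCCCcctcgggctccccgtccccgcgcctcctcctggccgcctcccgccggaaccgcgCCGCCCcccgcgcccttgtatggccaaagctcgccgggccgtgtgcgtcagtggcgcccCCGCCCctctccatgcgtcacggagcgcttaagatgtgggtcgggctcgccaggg

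Within these 250 bases *Hpcal4* had 2 GC boxes and 1 NF-Y box, *Ifit1* had 2 interferon response cores, *Nr4a1* had 3 GC boxes, and *Dcdc2a* had none of the 3. A promoter window of 250 bases before and 50 after the start was found for 28 of the 33 genes, 5 of them through an older symbol. The interferon response core, added to the search after the members were known, was in 3 of the 28 windows (10.7%), in 10.7% of the 27025 windows of all genes and in 7.62% of the 9401 windows of genes with a mean of at least 5 CPM. The homeodomain letters TAATTA were in 0 of the 28 windows and in 5.32% of all windows and 2.40% of those of expressed genes. The inner letters of the paired-like dimer site, AATNNAATT, were likewise in 0 of the 28, against 3.85% and 1.78%. The GC box was in 22 of 28 (78.6%), in 35.9% of all windows and in 65.9% of those of expressed genes. The NF-Y box was in 14 of 28 (50.0%), against 38.0% and 38.1%. The TATA box (TATAAA) was in 1 window, that of *Crtac1*, which is 3.57% against 14.2% and 6.79%. The AP-1 letters TGANTCA were in 1 window (*Rnf167*, against 7.92% and 4.71%), the cyclic AMP response element TGACGTCA in 1 (*Zbtb11*, against 1.85% and 3.34%), and the E-box CANNTG in 17 (60.7%, against 72.1% and 63.1%). Letters on both strands were searched, and some motifs can overlap. The median GC content was 62.3% and the median number of CpG 23.5 per window, against 52.7% and 7 for all genes and 61.3% and 21 for expressed genes. The number of CpG was above the median of all genes in 24 of the 28 windows and above that of expressed genes in 18. It was low in the windows of *2900052N01Rik* (2), *Chi3l1* (3), *Ifit1* (4) and *Stox2* (6). A match to such letters is a description, not a binding site.

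The 33 genes held 2 of calcium binding and sensing, *Efcab6* with the highest score and *Hpcal4* with the fifth. *Efcab6* encodes an EF-hand protein known to bind DJ-1, and lies on the minus strand of chromosome 15 at 83697142 to 83895809 (mm9). It had 8.35, 39.9, 94.8 and 85.5 CPM in NG/JG libraries 1 to 4. In TG it had 0.254, 0, 0 and 0.527 CPM, in L3–L5 DRG 1.85, 0.198, 0.0824 and 3.59 CPM, and in T10-L1 DRG 1.07, 0.381, 0.0822 and 0 CPM. NG/JG library 1 stood well under the other 3 NG/JG libraries, and its 60 counts lay above the 17 counts of L3–L5 DRG library 4, the nearest other. The ratio of these CPM was 2.33, with a 95% interval of 1.34 to 4.25 for counting error alone. The score of *Efcab6*, 2.04, was the only one above 2.

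*Hpcal4* encodes a visinin-like neuronal calcium sensor and lies on chromosome 4 at 122860470 to 122871944 (mm9, plus strand). It had 10.4, 42.9, 19.2 and 15.7 CPM in NG/JG. It was near 0 in TG (0.127, 0.197, 0.344 and 0 CPM) and in T10-L1 DRG (0.917, 0, 0 and 0.0750 CPM). L3–L5 DRG was divided, with 0.0973 and 0.0992 CPM in libraries 1 and 2 and 6.59 and 4.65 CPM in libraries 3 and 4. Among 11 genes of the neuronal calcium sensor family, a list drawn up after the members were known, 10 had a mean of at least 1 CPM, and *Hpcal4* alone had all 4 NG/JG libraries on top. The median log2 ratio of NG/JG to the others in that list was -0.75, against -0.14 over 14275 genes. *Hpcal1*, a close relative, had a mean of 106 CPM in NG/JG and of 71.4 to 90.8 CPM in the other ganglia, and *Kcnip4*, which modulates potassium channels, had 61.3 CPM in NG/JG and 203 CPM in L3–L5 DRG. This family list and those drawn up likewise below include members, whose highest mean in NG/JG was fixed by the choice.

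*Dcdc2a*, a doublecortin-domain gene whose protein binds microtubules and is found in primary cilia, had the second-largest ratio of means, 39.0. Its NG/JG levels were 15.6, 337, 17.97 and 141 CPM, a 21.6-fold range and the widest of the 33 genes. The level was 12.9 CPM in TG library 3 and 14.0 CPM in L3–L5 DRG library 2, close under the lowest NG/JG library, while T10-L1 DRG had 0.190 to 0.900 CPM. The mean thus rested on NG/JG libraries 2 and 4, and libraries 1 and 3 were near the top of the other ganglia. The interval of the lowest over the highest library, 0.861 to 1.44 around 1.11, included 1.

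**Figure D2:**
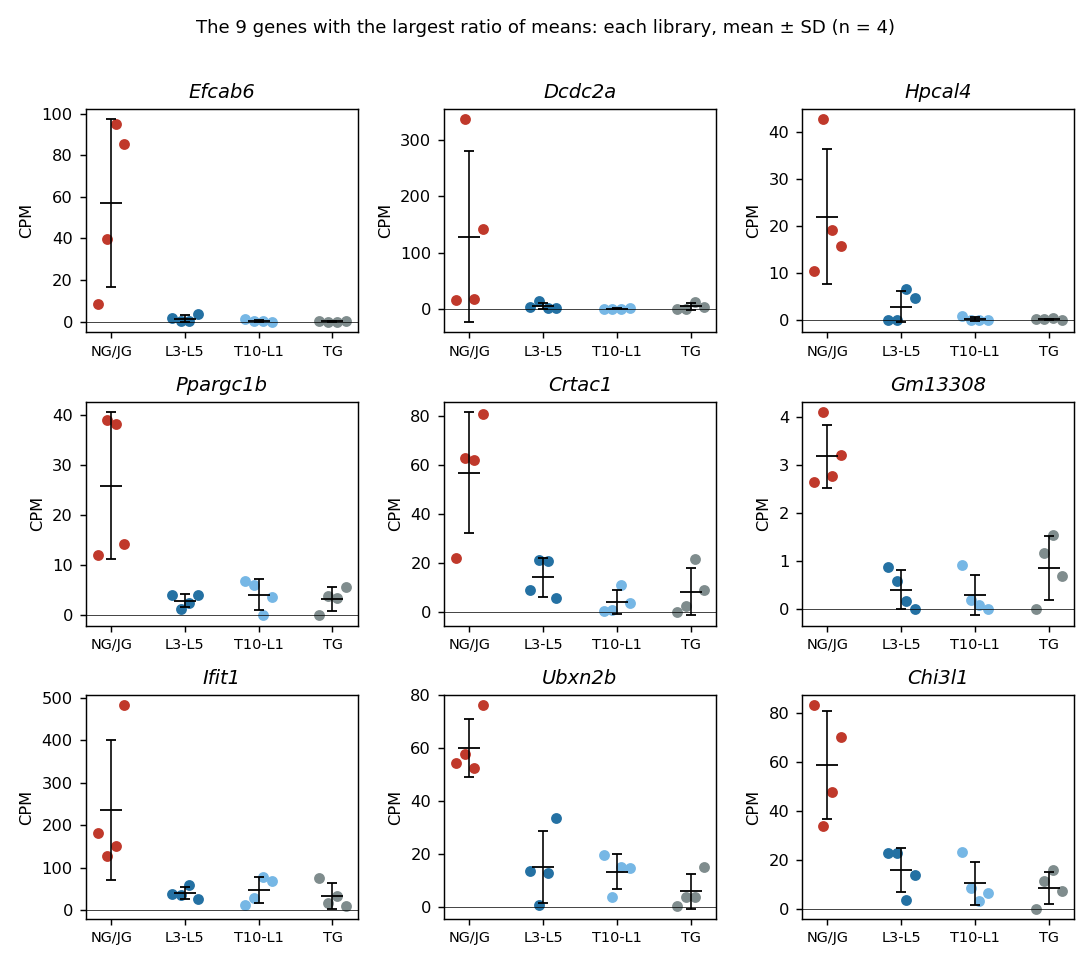
CPM in each library (points) with the mean and SD (black bars, n = 4 libraries per ganglion) for the 9 genes whose NG/JG mean was over 5 times the mean of the 12 others, each panel with its own axis. *Dcdc2a* is carried by NG/JG libraries 2 and 4, *Ifit1* is highest in library 4, and *Ubxn2b* is the most even of the higher-level genes.

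Mitochondrial metabolism was represented by *Ppargc1b* and *Prodh*. *Ppargc1b* encodes PGC-1β, a coactivator of genes of mitochondrial respiration and lipid use. Its levels were 12.1, 38.9, 38.3 and 14.3 CPM in NG/JG and 0 to 6.88 CPM elsewhere, and the ratio of the lowest to the highest was 1.76 (95% counting interval 1.21 to 2.58). *Prodh*, the mitochondrial proline dehydrogenase, had 87.9, 52.1, 65.6 and 89.9 CPM in NG/JG and 1.64 to 38.4 CPM elsewhere. For *Prodh* the ratio of the lowest to the highest was 1.36, with a counting interval of 1.15 to 1.61. With library sizes normalised by TMM this ratio was 0.963, with TG library 2 above the lowest NG/JG library. In a list of 13 genes of PGC-1 signalling and its mitochondrial partners, drawn up after the members were known, 11 were expressed, 3 had the highest mean in NG/JG (27.3% against 27.0% of all expressed genes), and the median log2 ratio was -0.41, against -0.14 over all. *Ppargc1b* and *Prodh* were the 2 with all 4 NG/JG libraries on top.

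Further genes of lipid and sterol handling had smaller margins. *Stard3*, which moves cholesterol at late endosomes, had 141, 160.3, 168 and 303 CPM in NG/JG and 51.7 to 126 CPM elsewhere. *Mest*, an imprinted gene of the hydrolase fold family, had 225, 244, 285 and 214 CPM in NG/JG, with a highest value of 181 CPM in T10-L1 DRG. *Cyp51*, the lanosterol demethylase of cholesterol synthesis, had 391, 436, 356 and 562 CPM in NG/JG, against 139 to 349.9 CPM in DRG and 42.5 to 256 CPM in TG. Of 21 expressed genes of sterol synthesis and uptake, listed after the members were known, 8 had the highest mean in NG/JG, which is 38.1% against 27.0% of all expressed genes, and *Cyp51* was the only one with all 4 libraries on top. *Insig1* and *Sc4mol* had 3 of 4 on top.

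Of the cell-surface and secreted proteins, *Chi3l1*, a secreted chitinase-like glycoprotein, had 83.3, 33.8, 47.7 and 70.3 CPM in NG/JG and 0 to 23.1 CPM elsewhere, a ratio of lowest to highest of 1.46 (1.20 to 1.79). *Crtac1*, a secreted acidic protein known as an antagonist of the Nogo receptor, had 22.4, 63.2, 62.1 and 80.8 CPM in NG/JG and reached 21.6 CPM in TG library 3. *Negr1*, an adhesion molecule of the IgLON family, had 50.6, 74.7, 216 and 66.7 CPM in NG/JG and reached 47.1 CPM in TG library 1. The other IgLON genes did not share the pattern of *Negr1*, since 1 of 5 had the highest mean in NG/JG, which was *Negr1* itself (20% against 27.0% of all expressed genes).

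The 33 genes held 2 adhesion G protein-coupled receptors. *Gpr126*, needed by Schwann cells for myelination, was the most even of all, with 133, 142, 145 and 136 CPM in NG/JG, a highest over lowest of 1.09. Its highest value elsewhere was 127 CPM in T10-L1 DRG library 2, and TG ranged from 17.3 to 98.5 CPM. *Bai3*, a neuronal receptor of synapses, had 55.7 to 117 CPM in NG/JG and up to 55.4 CPM elsewhere. The adhesion receptors listed after the members were known gave 20 expressed genes, of which 9 had the highest mean in NG/JG (45.0% against 27.0% of all expressed genes) and the median log2 ratio was 0.45, against -0.14 over all. The members *Gpr126* and *Bai3*, placed there by the choice, were 2 of these 9.

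*Ifit1*, an interferon-induced protein that binds viral RNA, had 182, 129, 151 and 482 CPM in NG/JG, against 9.31 to 76.9 CPM in TG, 26.0 to 60.2 CPM in L3–L5 DRG and 13.5 to 79.2 CPM in T10-L1 DRG. Its margin, 1.63, had the narrow interval of 1.49 to 1.78. In a list of 15 interferon-response genes drawn up after the members were known, 9 had the highest mean in NG/JG (60% against 27.0% of all expressed genes). The median log2 ratio was 1.08, against -0.14 over all, but single libraries could carry these means. *Irf7* had 11.1, 17.4, 0.276 and 185 CPM in NG/JG, and *Ifih1* had 56.6, 119, 0 and 341 CPM. *Ifit1* was the only one of the 15 with all 4 on top.

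*Nr4a1*, the orphan nuclear receptor Nur77, encoded by an immediate-early gene that stimulation of a cell switches on rapidly, was the gene of highest level per length, with a mean of 1458 RPKM in NG/JG, while the 31 genes with a length had a median of 15.4 RPKM. It had 4244, 3184, 3278 and 3720.2 CPM in NG/JG. The values were 786 to 1931 CPM in TG, 304 to 2820.1 CPM in L3–L5 DRG and 1609.5 to 3125 CPM in T10-L1 DRG, so that its lowest NG/JG library exceeded T10-L1 DRG library 1 by a ratio of 1.02. All 15 genes of an immediate-early list drawn up after the members were known had their highest mean in NG/JG, against 27.0% of all expressed genes. They also had it with TMM library sizes. Their median log2 ratio was 1.097, against -0.14 over all. *Nr4a2* had 537, 194, 489 and 315 CPM in NG/JG and at most 266 CPM elsewhere. *Fos* had 7184, 14887, 7283 and 16483 CPM, and reached 13763 CPM in the others. *Nr4a1* was the only one of the 15 whose groups did not overlap.

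Other genes of transcription and chromatin had narrow margins except *Stox2*, a winged-helix gene, with 144, 84.6, 101 and 106 CPM in NG/JG and at most 60.6 CPM elsewhere (ratio 1.39, 1.25 to 1.55). *Zbtb11*, *Zfp609* and *Chd6*, a zinc finger repressor, a zinc finger protein and a chromodomain remodeller, had ratios of lowest to highest between 1.02 and 1.03. Among genes of RNA processing and translation, *Hnrpll*, a splicing regulator, had 62.7, 56.9, 79.1 and 82.6 CPM in NG/JG and at most 43.8 CPM elsewhere (ratio 1.30, 1.15 to 1.47). *Eif3a*, the large subunit of a translation initiation factor, had 217, 296, 251 and 275 CPM against at most 209 CPM. *Cpsf3l*, the catalytic subunit of Integrator, had 133, 82.7, 85.1 and 177 CPM against at most 79.8 CPM. *Sfswap*, a splicing regulator, differed by a ratio of 1.00.

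The ubiquitin and SUMO group was led by *Ubxn2b*, a cofactor of the VCP ATPase in membrane fusion, with 54.4, 57.9, 52.5 and 76.3 CPM in NG/JG and at most 33.6 CPM elsewhere (ratio 1.56, 1.30 to 1.89). *Wdr26*, a subunit of the CTLH ubiquitin ligase, had 81.1, 58.6, 107 and 129 CPM in NG/JG and at most 49.4 CPM elsewhere. *Rnf167*, a ubiquitin ligase of endolysosomes, had 179, 203, 201 and 234 CPM and at most 173 CPM elsewhere. *Senp6*, a SUMO protease, had 60.996 CPM in its lowest NG/JG library and 60.2 CPM in TG library 4. Of 13 expressed genes of the CTLH complex and SUMO proteases, listed after the members were known, 5 had the highest mean in NG/JG (38.5% against 27.0% of all expressed genes) and the median log2 ratio was -0.01, against -0.14 over all. The members *Wdr26* and *Senp6*, placed there by the choice, were 2 of these 5. The remaining genes were *Rapgef6*, an exchange factor for Rap GTPases, *Tom1l1*, an endosomal sorting adaptor, *Txlng*, a syntaxin-binding protein, and 3 less characterised genes. *Fam193a* had 77.5, 59.97, 62.6 and 106 CPM in NG/JG and at most 49.2 CPM elsewhere. *2900052N01Rik* had 84.4, 103, 64.5 and 79.5 CPM and at most 60.9 CPM elsewhere. *Gm13308* had 2.64, 4.10, 2.76 and 3.20 CPM, from 19 counts in its lowest library, and lies in a region of near-identical gene copies on chromosome 4, so its counts are uncertain.

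Reads of 5 genes could be shared with a neighbour on the other strand, and the counting was not stated to use strand. The exon bases shared were 23.0% for *Mest* (with *Copg2*), 22.7% for *Cpsf3l* (*Pusl1*), 8.88% for *Tom1l1* (*Cox11*), 5.34% for *Rnf167* (*Slc25a11*) and 2.31% for *Txlng* (*Rbbp7*). The 31 annotated genes were all protein-coding and spread over 17 chromosomes, with at most 4 on one.

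The counting interval of lowest over highest library included 1 for 19 of the 33 genes. This ratio chose the genes, so an interval above 1, as in the other 14, describes counting precision and is no test of a separation. On either side of the limit, *Tom1l1* and *Txlng* entered with 21.0 against 20.9 CPM and 17.2 against 17.1 CPM, while *Lpcat1* and *Clk4* were just outside with 41.9 against 42.0 CPM and 102 against 102.2 CPM. The lowest NG/JG library was library 1 for 14 of the genes, library 2 for 12, library 3 for 4 and library 4 for 3. On CPM, the highest of the 12 others was an L3–L5 DRG library for 13 genes, a T10-L1 DRG library for 12 and a TG library for 8. With TMM library sizes it moved to a TG library for genes such as *Ppargc1b*, *Stox2*, *Wdr26* and *Chd6*. The genes with a TG library on top by CPM kept one, so this order depends on the scaling.

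**Figure D3:**
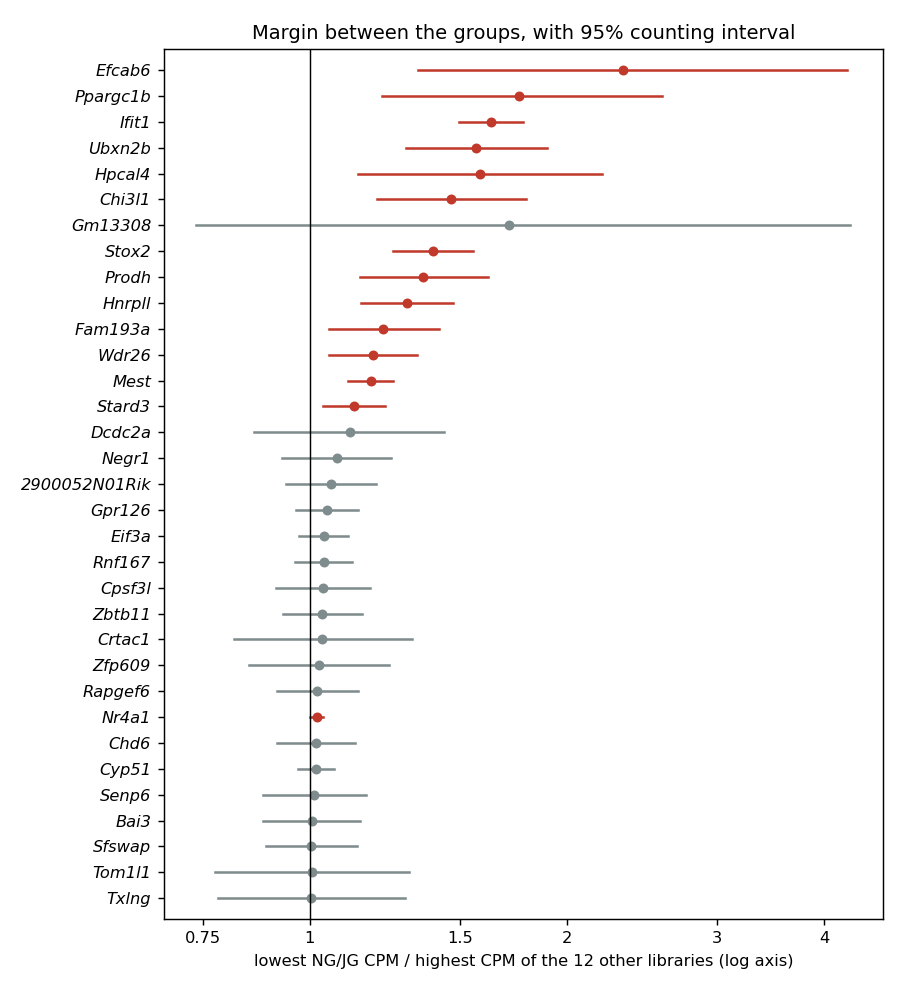
Ratio of the lowest NG/JG CPM to the highest CPM among the 12 other libraries for each of the 33 genes (log axis), with bars for the 95% interval of counting error, red where the interval lies above 1 (14 genes) and grey where it includes 1 (19 genes), as a description of precision since the ratio chose the genes. The points run from 1.00 at the bottom to 2.33 for *Efcab6*.

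The number of such genes lay within the range of the other ganglia. By the same score and exclusions, 156 genes (0.698%) had all 4 TG libraries above the 12 others. For L3–L5 DRG there were 27 (0.121%) and for T10-L1 DRG 16 (0.0716%). Such a count depends on the spread between libraries of a group, which differed. The chi-square per gene between 2 libraries was 181 to 375 in NG/JG and 29.9 to 233 in TG, with at most 33.3 among TG libraries 2, 3 and 4. Each DRG level also had the 4 libraries of the other level among its 12 others, and edgeR called 0 of 13550 genes between the levels. The exclusions left out 4 genes that met the condition in NG/JG, and those left out for the other ganglia were not counted. For these reasons the counts do not rank the ganglia by how distinct their neurons are. Scores above 2 were reached by 1 gene for NG/JG, 8 for TG, 2 for L3–L5 DRG and 0 for T10-L1 DRG. Another 287 genes had 3 of the 4 NG/JG libraries above all others, and the library that fell short was number 1 or 2 for 79 genes each, number 3 for 64 and number 4 for 65.

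Genes known from vagal afferents were listed without the families that had been left out by symbol, some of which hold well-known vagal genes, so the counts here do not cover those families. Of 46 such genes listed, 43 were counted, 0 were members, and 26 had no NG/JG library above the 12 others. Only 0.148% of the 22347 genes considered were members, so 0 among 43 does not set the list apart. The list also holds genes shared with DRG neurons. *Scn10a* had means of 71.7 CPM in NG/JG and 694 CPM in L3–L5 DRG, and *Trpv1* of 66.4 and 265 CPM. The number of NG/JG libraries above all others was 1 for 8 genes, 2 for 6 and 3 for 3, and 15 of the 43 had their highest mean in NG/JG. For comparison, 27.0% of the 14275 genes with a mean of at least 1 CPM had their highest mean there, and 287 of the 22347 genes had 3 of 4 libraries above. The 43 genes were not held to that mean. Some of them, such as *Glp1r* and *Sst*, lay under it, so the share among the 43 is not on the same footing. *Eya1*, a placodal transcriptional coactivator, had 15.9, 48.3, 103 and 4.96 CPM in NG/JG and at most 10.7 CPM elsewhere, and so missed the limit by library 4. *Ddc*, which makes dopamine and serotonin from their precursors, had 39.5, 0.114, 33.03 and 6.41 CPM in NG/JG and at most 2.23 CPM elsewhere. *Chrnb4*, a nicotinic receptor subunit, had 0.417, 80.9, 236 and 241 CPM, with 39.0 CPM as the highest elsewhere. Each of these 3 genes had 1 NG/JG library that did not exceed the highest of the 12 others. *Vip*, a neuropeptide, was seen in a single NG/JG library (0.417, 0.114, 444 and 0 CPM). *Glp1r*, *Sst* and *Lepr* had 0 reads in all 4 NG/JG libraries, which at these depths allows up to 0.310 to 0.417 CPM by a floor of 3 counts.

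**Figure D4:**
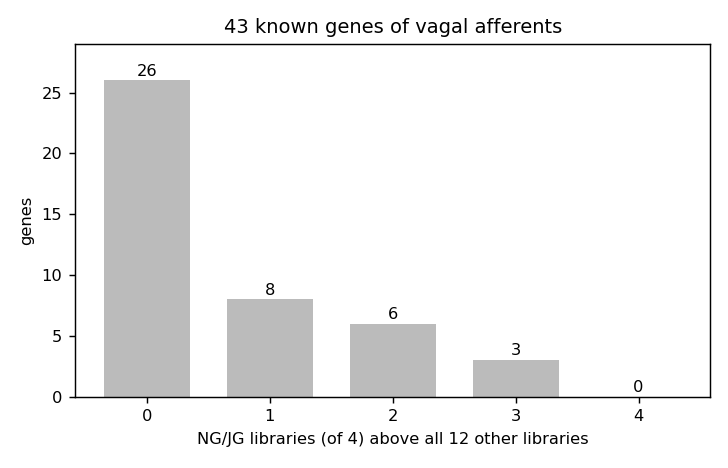
Number of the 43 counted genes known from vagal afferents (vertical axis) by how many of the 4 NG/JG libraries lay above all 12 other libraries (horizontal axis). The bars are 26, 8, 6, 3 and 0, so no gene of the list met the condition in all 4 libraries.

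Levels among the other 3 ganglia were not used to compare them in the choice and were tested with edgeR's quasi-likelihood test over all genes, with Benjamini-Hochberg adjustment. The choice did cap these levels from above, so a member that was very high in 1 of the 3 could not enter. On CPM, TG had the lowest mean of the 3 for 21 of the 33 genes, and T10-L1 DRG the highest for 17. The share over all genes was not counted, and the edgeR fits with TMM did not show members as mostly lower in TG. In these fits 40% of the members tested were lower in TG than in L3–L5 DRG, beside 50.9% of all genes. Against T10-L1 DRG 51.7% were lower in TG, beside 51.2% of all genes. After adjustment, 0 of 30 members tested differed between TG and L3–L5 DRG (0% of 12900 genes), 0 of 29 between TG and T10-L1 DRG (5.87% of 12914 genes) and 0 of 30 between the DRG levels (0% of 13550 genes). At an unadjusted p under 0.05 the counts were 1, 1 and 3, against 18.2%, 21.6% and 6.07% of all genes. DESeq2 called 1, 1 and 0 members, against 11.3%, 15.4% and 0.499% of all genes. The median log2 fold change of the members was 0.07, -0.00 and -0.08 in the 3 comparisons, against -0.03, -0.03 and 0.03 for all genes tested. *Efcab6*, *Hpcal4* and *Gm13308* were too low in these ganglia for the test.

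*Tom1l1* had the lowest p between TG and L3–L5 DRG. It had 0, 2.16, 0.687 and 2.63 CPM in TG and 9.14, 12.7, 20.6 and 20.9 CPM in L3–L5 DRG, without overlap, and 21.0, 28.2, 46.4 and 61.6 CPM in NG/JG. The log2 fold change was -3.10 (SE 1.28), with an adjusted p of 0.230 by edgeR and 0.0170 by DESeq2. The next were *Eif3a* (log2 fold change -0.73, adjusted p = 0.320 by edgeR), *Cyp51* (-0.999, 0.338), *Stox2* (0.84, 0.379) and *Rnf167* (0.52, 0.383). *Eif3a* was the other member whose TG libraries all lay under those of L3–L5 DRG, with 50.9 to 109 CPM in TG and 124 to 209 CPM in L3–L5 DRG. Such a lack of overlap with TG lower was found for 12% of all genes tested, and with TG higher for 3.96% and for 0 members.

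Between TG and T10-L1 DRG, *Fam193a* had the lowest p, with 18.4, 28.7, 34.5 and 49.2 CPM in TG and 16.8, 18.1, 13.5 and 26.2 CPM in T10-L1 DRG, which overlapped (log2 fold change 1.18, SE 0.52, adjusted p = 0.216 by edgeR). *Eif3a* (-0.66, adjusted p = 0.267 by edgeR), *Nr4a1* (-0.69, 0.286), *Cpsf3l* (-0.80, 0.288) and *Cyp51* (-0.99, 0.310) followed. TG lay under T10-L1 DRG without overlap for *Eif3a*, *Cpsf3l* and *Tom1l1*, beside 13.2% of all genes, and 0 members had TG higher without overlap, beside 5.3%. Without TG library 1, in which 9 of the 33 genes had 3 counts or fewer against 5 or fewer genes in any other library, edgeR called 7 members in this comparison: *Chd6*, *Fam193a* and *Senp6* were higher in TG, and *Cyp51*, *Gpr126*, *Mest* and *Nr4a1* lower. These calls stood beside 26.7% of all genes in the same fit. Against L3–L5 DRG it called *Cyp51* alone (log2 fold change -1.74, adjusted p = 0.00974), beside 15.2%. *Cyp51* had 256 CPM in TG library 1 and 42.5 to 69.1 CPM in the other 3 TG libraries.

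Between the DRG levels, *Dcdc2a* had the lowest p, with 2.63, 14.0, 1.81 and 1.69 CPM in L3–L5 DRG and 0.611, 0.190, 0.247 and 0.900 CPM in T10-L1 DRG, which did not overlap (2.17% of all genes had L3–L5 DRG higher without overlap, and 1.53% had it lower, with 0 members). Its log2 fold change was 3.29 (SE 1.19), with an adjusted p of 0.785 by edgeR. *Stox2* (-0.86), *Gpr126* (-0.92), *Mest* (-0.59) and *Fam193a* (0.82) had the same adjusted p of 0.785 by edgeR. Between TG and T10-L1 DRG, *Dcdc2a* was too low for edgeR, in TG libraries 1 and 2 as well as in T10-L1 DRG. DESeq2 gave it a log2 fold change of 3.50 with TG higher and an adjusted p of 0.0402, resting on TG libraries 3 and 4 with 12.9 and 3.69 CPM.

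**Figure D5:**
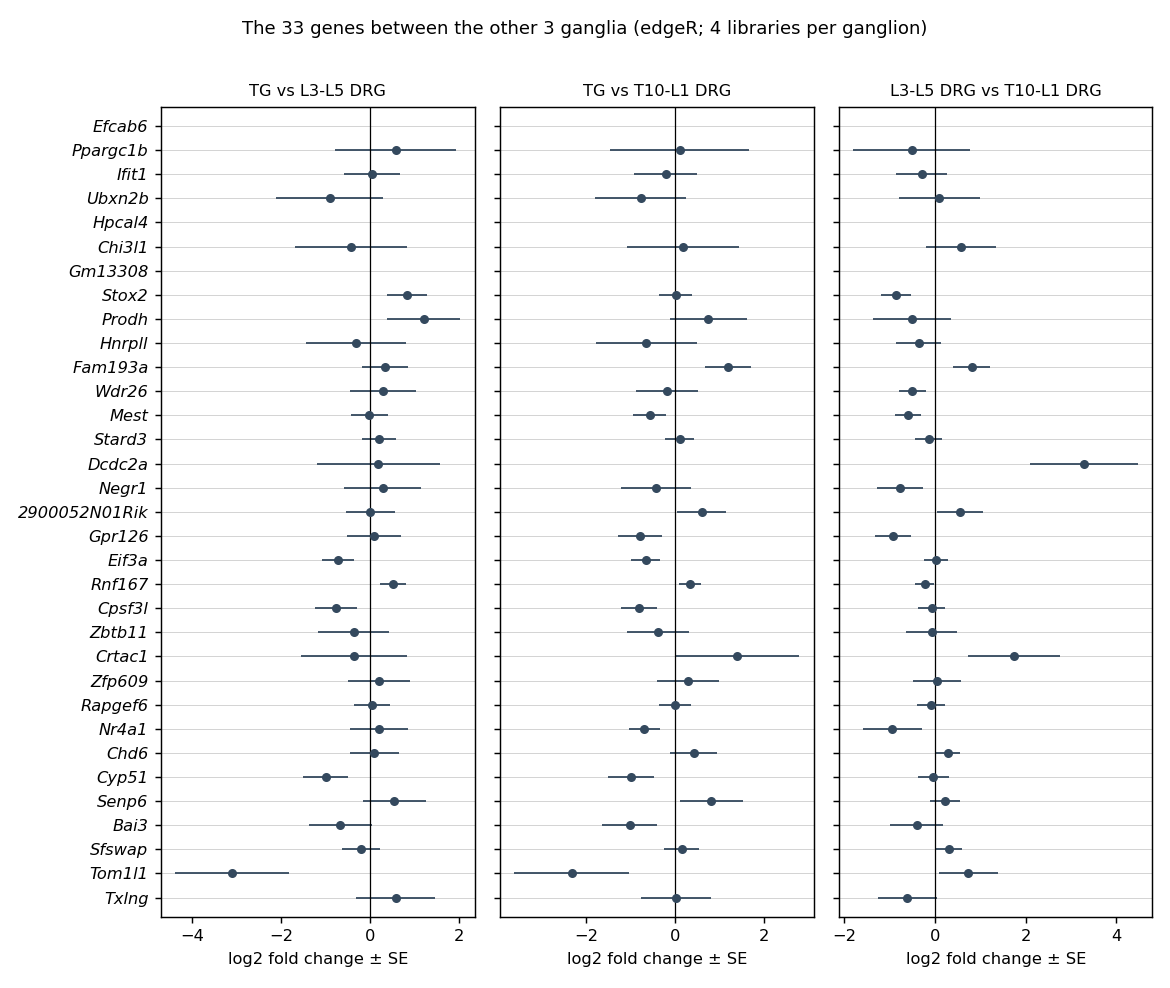
Log2 fold change with its SE (edgeR, 4 libraries per ganglion) for each of the 33 genes in the 3 comparisons among TG, L3–L5 DRG and T10-L1 DRG, where positive values mean higher in the ganglion named first. None passed the adjusted threshold, the largest sizes are those of *Tom1l1* in both TG comparisons and *Dcdc2a* between the DRG levels, and genes with no point were too low to test.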

How the data were processed

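TdTomato-positive neurons were sorted in 2 cycles, and cDNA was primed with oligo dT as in SMART-seq2. For the deposited counts, the authors mapped single-end reads with TopHat2 (build mm9) and assigned them to gene symbols by HTSeq, without normalization; versions are not given in the sources used here. The counts were scaled here to CPM of reads on genes, with the counter's own summary lines dropped (no-feature reads were 29.6% to 66.6%), and RPKM used the annotated exon length (GENCODE M1, mm9). Precision follows from 4735624 to 13333318 reads on genes per library, intervals and floors (3 counts) cover counting error only, and the interval of a ratio of 2 libraries is an exact binomial one.

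The members and gene lists were chosen with earlier results of these data known. Ranks below 33 could not be used because of ties at a score of 1, so the values at the limit are those of the last 5 members and the next 5 genes under 1. Named were all members by role, those with the 20 highest scores by library, and in each test the members with an adjusted p under 0.05 or the 5 with the lowest p. TG, L3–L5 DRG and T10-L1 DRG were compared in pairs, on 8 libraries each, with edgeR 4.0.16 in R 4.3.3 (TMM, filterByExpr, glmQLFit, glmQLFTest) and Benjamini-Hochberg adjustment over all genes, after the script was tested on simulated data. Alternatives were DESeq2 1.42.0, RLE factors, no filter, all 16 libraries in one fit, the replicate number as a block and each library left out, and for the score other pseudocounts, TMM library sizes and other summaries. Same-numbered libraries of different ganglia did not deviate together in every pair (correlations from -0.12 to 0.15), so the numbers were not taken to pair them. Promoters were those of RefSeq on GRCm38.p6. Some genes are not reported here.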

Additional observations from a re-analysis of the deposited data

Results flagged for a closer look

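A library far from the other 3 of its ganglion was seen for 9 of the 132 combinations of a member and a ganglion, by Dixon's criterion at 95%. Chance meets this criterion in about 1 in 20 unselected groups. The choice bounded the NG/JG values of members from below and the others from above, so that rate need not hold here. In NG/JG, *Ifit1* had 482 CPM in library 4 (129 to 182 CPM in the others), *Stard3* 303 CPM in library 4 (141 to 168 CPM), *Bai3* 117 CPM in library 4 (55.7 to 64.4 CPM) and *Negr1* 216 CPM in library 3 (50.6 to 74.7 CPM). *Chd6* had 115 CPM in NG/JG library 4, under the 148 to 151 CPM of the others. In DRG, *Dcdc2a* had 14.0 CPM in L3–L5 library 2 (1.69 to 2.63 CPM), *Stox2* 33.5 CPM in T10-L1 library 4 (59.2 to 60.6 CPM) and *Hpcal4* 0.917 CPM in T10-L1 library 1, from 6 counts (0 to 0.0750 CPM). In TG, *Cyp51* had 256 CPM in library 1 (42.5 to 69.1 CPM). NG/JG library 4 was the high or low library in 4 of the 5 NG/JG cases.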

How the results depend on the processing

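Membership turned on single libraries. Genes with a score above 1 numbered 33, and still 33 with a pseudocount of 0.1 or 5 CPM, but 90 when the second highest of the 12 others was used and 754 with the NG/JG median, which shared 1 of the 10 highest scores. Leaving out 1 library gave 33 to 112 genes, with 3 to 10 of the 10 highest shared. By construction, leaving out a library, or using the second highest or the median, cannot lower the count or lose a member. The count was 112 without NG/JG library 1 or 2, 97 without library 3 and 98 without library 4. With TMM library sizes 37 genes scored above 1 and 23 of the 33 remained, the losses being *Prodh*, *Fam193a*, *Wdr26*, *Dcdc2a*, *Rnf167*, *Crtac1*, *Zfp609*, *Rapgef6*, *Cyp51* and *Senp6*. Members called by edgeR were 0 in all 3 comparisons, and DESeq2 called 1 between TG and L3–L5 DRG and 1 between TG and T10-L1 DRG. Leaving out 1 library gave 0 to 1, 0 to 7 and 0 to 0 members. The fit with the replicate number as a block called 0, 0 and 0 members, as did the fit without it, so the pairing changed no call on a member. Calls over all genes moved more: edgeR called 0, 758 and 0, DESeq2 1612, 2199 and 78, and the block fit 0 in the second comparison, and the cause was not tested. Of 195 values of named members under the alternatives, 190 kept their direction and their side of the threshold, 5 moved past the threshold in the same direction and 0 reversed. Outside NG/JG, *Efcab6* had at most 19 counts in a library and *Gm13308* at most 9, so small counts set their scores. The score of *Hpcal4* was set by 75 counts in NG/JG library 1 against 80 in L3–L5 DRG library 3.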

Other observations

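Genes whose 4 NG/JG libraries all lay under the 12 others numbered 154, which is more than the 33 that lay above, while for TG the numbers were 192 under and 156 above, for L3–L5 DRG 0 and 27, and for T10-L1 DRG 5 and 16. *Gch1*, which makes the cofactor of dopamine and serotonin synthesis, had 24.3, 29.0, 0 and 0 CPM in NG/JG, and *Slc17a6*, the main vesicular glutamate transporter of sensory neurons, had 58.4, 180.1, 313 and 0.207 CPM. *Tmc3*, a transmembrane channel-like gene, had 195, 1.71, 184 and 0.723 CPM in NG/JG and at most 21.8 CPM elsewhere, so that libraries 1 and 3 were high and libraries 2 and 4 were low. *Cartpt*, a neuropeptide of gut afferents, had 0.278, 336, 109 and 17.9 CPM.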
